A study of Saccharomyces cerevisiae with 2 samples.

Results

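The genes described here are 34 nuclear genes of Saccharomyces cerevisiae, budding yeast, that encode subunits of the respiratory chain and of the ATP synthase. They were chosen by name, as every probe set annotated to a single gene whose symbol or synonym is on the list, among 5656 genes named on the array. All 34 were found, on 36 probe sets, and all passed the filter used to compare the arrays, a mean signal at or above the 25th percentile of named genes (about 19.2). They comprise 4 genes of complex II, 9 of complex III, the gene of cytochrome c, 8 of complex IV and 12 of complex V, and they lie on 13 of the 16 nuclear chromosomes.

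In yeast mitochondria, electrons enter the chain through succinate dehydrogenase, which is complex II, and through separate NADH dehydrogenases, since yeast has no proton-pumping complex I. Cytochrome bc1, which is complex III, passes them through cytochrome c to cytochrome c oxidase, complex IV, and the proton gradient built on the way drives the ATP synthase, complex V. Most subunits are encoded in the nucleus and a few in the mitochondrial genome, and many of the nuclear genes are activated by the Hap2/3/4/5 complex and held down in glucose.

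The samples were 2 cultures of a yeast strain whose histone H3 carries arginine in place of lysines 4, 36 and 79, labelled as replicates of a single group. Per the series' design text, wild-type H3 was expressed in galactose and shut off by moving the cells to glucose, so that the mutant became the only H3. RNA was taken 12 h after the move from cells at an optical density of 0.5 to 0.7, and each culture was read on an Affymetrix array, which gives a signal in arbitrary units for each probe set, a group of probes against the same transcript. Wild-type cells and the other times were not analysed here. The values thus describe the mutant and the difference between its 2 arrays, with no test between groups and no p-value.

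Each array held 9335 probe sets, with a median signal of 28.4 on replicate 1 and 27.5 on replicate 2. Control probe sets for the opposite strand read at most 3.39 and 4.07, under the lowest gene value among the members (99.5 and 86.6 for ATP20 on replicates 1 and 2). The H3 probe sets match both H3 gene copies and were not used, so the loss of wild-type H3 was not checked. The galactose genes GAL1, GAL7 and GAL10, which are active in galactose, had signals of 8.20 ± 0.248, 17.3 ± 2.99 and 29.8 ± 1.79 (SD, n = 2) against a median of 42.0 and 41.4 for all named genes on replicates 1 and 2.

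The first question was how strongly these genes were read in the mutant in glucose. They were among the brighter genes of both arrays. Their median signal was 296 and 279.9 on replicates 1 and 2, or 288 ± 11.5 (SD, n = 2). On both arrays, 33 of the 34 lay in the top 25% of named genes, where 24.1% of all named genes lie, and 23 lay in the top 10%, where 9.67% lie. ATP20 was the exception to the top 25%, at percentiles 76.0 and 73.0. These are ranks of signal within an array, and probe sets bind their RNA with different strength, so the order of genes or complexes by signal is not an order of RNA amounts. In total RNA from a whole culture, fewer cells with an mRNA and less mRNA per cell cannot be told apart.

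The 4 complexes overlapped in signal. Complex II had a median of 278 and 268 on replicates 1 and 2 (273 ± 6.48), at median percentiles of 91.1 and 91.0. Complex III had 276 and 256 (266 ± 13.9), at percentiles 91.0 and 90.6. Complex IV had 330.4 and 315 (323 ± 11.1), at percentiles 92.5 and 92.3. For complex V the median was 326 and 289 (307 ± 26.6), at percentiles 92.3 and 91.5. The complex medians thus lay in a narrow band of rank, with a wider spread of genes inside each complex.

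**Figure D1:**
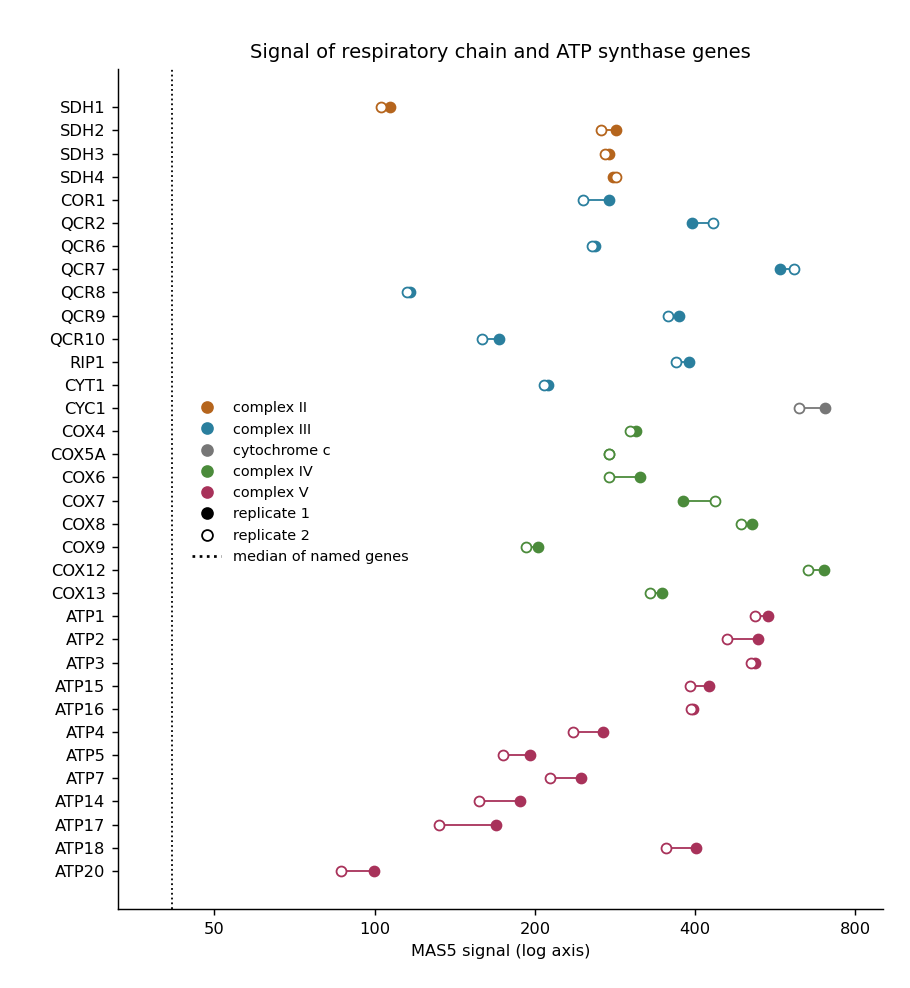
MAS5 signal (log axis) of the 34 genes, grouped by complex, with replicate 1 as filled points, replicate 2 as open points and a line joining the 2 arrays of a gene. Every gene lies to the right of the dotted line, the median of all named genes, and in complex V the open point lies to the left of the filled point for all 12 genes, in the values as deposited.

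In complex II, the flavoprotein gene SDH1 (YKL148C), whose product oxidises succinate, read 107 and 103 on replicates 1 and 2. The iron-sulfur subunit gene SDH2 (YLL041C) read 284 and 266. The products of SDH3 (YKL141W) and SDH4 (YDR178W) hold the enzyme in the inner membrane. SDH3 read 275 and 271, and SDH4 read 280.3 and 284. SDH1 stood lower in rank than the other complex II genes, at percentiles 77.5 and 77.3, while SDH2, SDH3 and SDH4 lay within a few signal units of each other on replicate 1.

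In complex III, COR1 (YBL045C), for the first core protein, read 276 and 247. QCR2 (YPR191W), for the other core protein, read 395 and 431. RIP1 (YEL024W), for the Rieske iron-sulfur protein that takes electrons from ubiquinol, read 389.6 and 368. CYT1 (YOR065W), for cytochrome c1, which hands them to cytochrome c, read 212 and 208. Of the small subunits, QCR7 (YDR529C) read 577 and 614 and QCR10 (YHR001W-A) read 172 and 159. QCR9 (YGR183C) was at 373 and 356 and the acidic subunit gene QCR6 (YFR033C) at 259.8 and 256. QCR8 (YJL166W) has 2 probe sets that disagreed in level, 463 and 504 on the brighter and 29.3 and 26.2 on the dimmer, and its value of 117 and 115 is their geometric mean.

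Cytochrome c, the soluble carrier between complexes III and IV, is made mainly from CYC1 (YJR048W), which read 702 and 626 at percentiles 97.5 and 97.1. Its isoform gene CYC7, known for expression at low oxygen, read 89.0 and 99.8 at percentiles 73.4 and 76.5.

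In complex IV, whose catalytic core is encoded in mitochondria, the zinc-binding subunit gene COX4 (YGL187C) read 309 and 302. The gene COX5A (YNL052W), which encodes the aerobic isoform of subunit 5, read 276 and 275, the closest pair of values of any member. Its hypoxic counterpart COX5B read 35.6 and 33.9, at percentiles 44.0 and 43.2 against 91.1 and 91.2 for COX5A. COX6 (YHR051W) read 316 and 276, lower on replicate 2. COX7 (YMR256C), for a small membrane subunit, read 379.6 and 437, higher on replicate 2. COX12 (YLR038C), whose product faces the intermembrane space, was in the top few percent of named genes at 697 and 651. Of the remaining small subunit genes, COX8 (YLR395C) read 511 and 488. COX9 (YDL067C) read 203 and 193, and COX13 (YGL191W) read 346 and 328.

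In complex V, the F1 sector is the catalytic head and the F0 sector with its stalk anchors it and carries protons. The 5 F1 genes had a median of 519 and 459.9, and all lay in the top 10% of named genes on both arrays. The subunit alpha gene ATP1 (YBL099W) read 548 and 518, and the catalytic subunit beta gene ATP2 (YJR121W) 526 and 459.9. The products of ATP3, ATP15 and ATP16, subunits gamma, epsilon and delta, form the central stalk that turns inside the head. ATP3 (YBR039W) read 519 and 509. ATP15 (YPL271W) read 425 and 391. ATP16 (YDL004W) read 397 and 393, and ATP3 and ATP16 were the closest pairs of values in the complex.

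The 7 F0 and stalk genes had a median of 196 and 174, and only ATP18 lay in the top 10% on both arrays. In the stator, which keeps the head from turning, ATP4 (YPL078C), for subunit b, read 268 and 236. ATP7 (YKL016C), for subunit d, read 244 and 214. ATP5 (YDR298C), whose product OSCP joins the stalk to F1, read 196 and 174. Each of these 3 genes was lower on replicate 2. In the membrane part, ATP18 (YML081C-A), for subunit i/j, read 401 and 353. ATP17 (YDR377W), for subunit f, read 169 and 132. ATP20 (YPR020W), for subunit g, which helps pair the enzymes into dimers, read 99.5 and 86.6. ATP14 (YLR295C), for subunit h, which belongs to the stator and not to the membrane part, has 2 probe sets. They read 349 and 317 and 101 and 77.4, with a geometric mean of 188 and 157.

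The second question was how closely the 2 arrays, 1 for each culture, matched in these genes. It is given as the log2 ratio of replicate 2 to replicate 1 for each gene, which compares a probe set only with itself. Differences between the cultures and between their RNA preparations or arrays cannot be told apart. The 12 complex V genes on the list stood lower on replicate 2. The complex V subunit genes ATP19 and TIM11, not on the list, had ratios of -0.012 and 0.046. Complexes II, III and IV lay nearer to the median of all genes, a difference between complexes that was not tested. The median log2 ratio was -0.18 over the 12 complex V genes, a level 1.14-fold lower on replicate 2. It was -0.040 for complex II, -0.028 for complex III and -0.070 for complex IV. The median over all 4242 genes above the filter was -0.023. Under quantile normalisation complexes II, III and IV changed sign, to 0.0046, 0.019 and 0.0060, while complex V stayed lower at -0.12.

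All 12 complex V genes on the list read lower on replicate 2, where 57.6% of the genes above the filter did. With quantile normalisation 10 of 12 did, against 45.3% of the genes above the filter. At a fold of more than 1.1, 8 of 12 complex V genes were lower on replicate 2, against 21.0% of genes above the filter and 16.7% of the 1213 genes in the same signal range. The count was 4 of 12 with quantile normalisation, against 15.2% of the genes above the filter. In complexes II to IV and cytochrome c, 18 of 22 genes read lower on replicate 2, and 3 of 22 by more than 1.1-fold, against 17.0% of the genes in their signal range. Centred on the median of the genes above the filter, which splits those genes evenly, 14 of these 22 were lower and 11 of the 12 complex V genes.

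**Figure D2:**
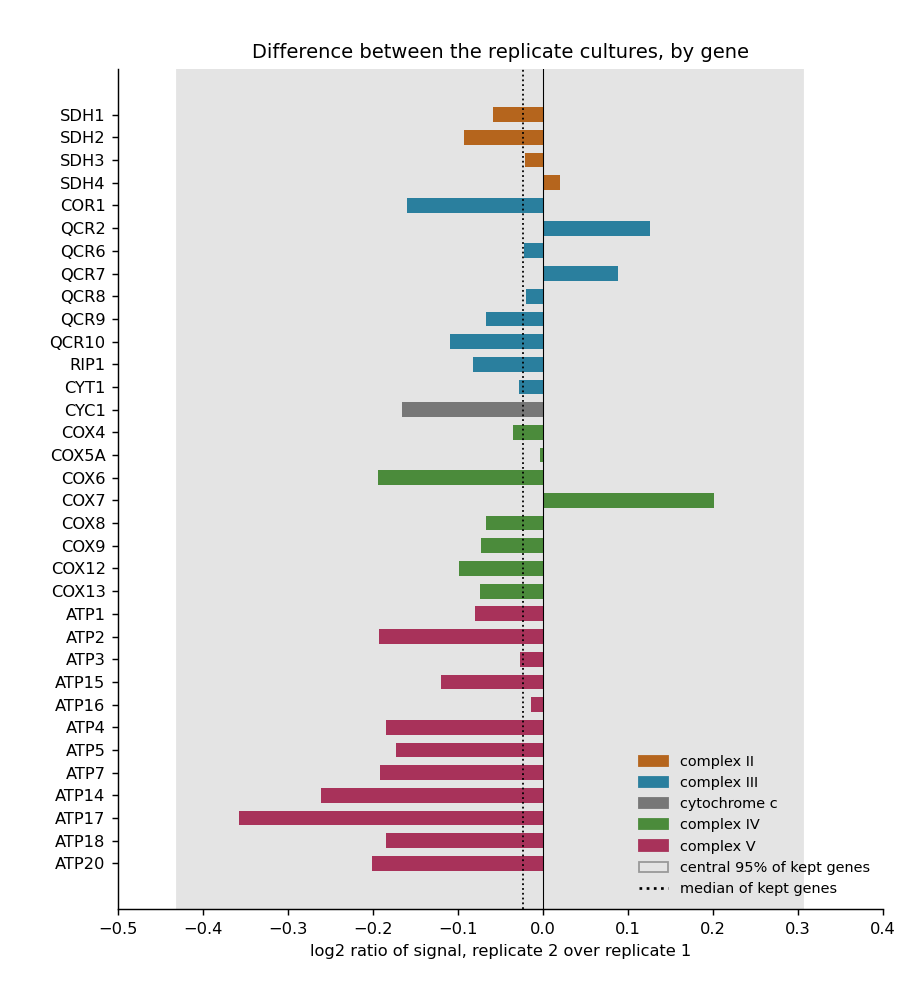
Log2 ratio of signal, replicate 2 over replicate 1, for each of the 34 genes as a bar coloured by complex. The dotted line is the median of the genes above the filter (-0.023) and the grey band their central 95%, from -0.43 to 0.31. All 12 complex V bars point left in the values as deposited (10 of 12 would with quantile normalisation), to at most -0.36 for ATP17, and no bar leaves the band. For the 1282 genes in the members' signal range the central 95% was narrower, from -0.33 to 0.21, and ATP17 lay below it.

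Within complex V the difference between the sectors was not tested, and their ratios overlapped. All 7 F0 and stalk genes on the list were lower on replicate 2 by more than 1.1-fold, with log2 ratios from -0.36 to -0.17 and a median of -0.19. Of the 1069 genes in their signal range, 16.7% were lower by that much. With quantile normalisation 4 of the 7 were, against 15.2% of the genes above the filter, and the median of the 7 was -0.14. ATP17 had the lowest ratio of all members, -0.36, and was 1.28-fold lower on replicate 2. ATP14 followed at -0.26, from probe sets at -0.14 and -0.38, so that the size of its difference rests on the dimmer probe set. ATP20, at -0.20, ATP7, at -0.19, ATP4 and ATP18, both near -0.19, and ATP5, at -0.17, lay close together.

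The F1 genes were mixed. ATP2 had a log2 ratio of -0.19, within the range of the F0 and stalk genes, and ATP15 one of -0.12. ATP1 stood at -0.080. ATP3, at -0.027, and ATP16, at -0.014, lay near the median of all genes above the filter. The F1 median of -0.080 became -0.0051 with quantile normalisation, and 3 of 5 genes were then lower on replicate 2, against 45.3% of the genes above the filter. It became -0.13 with the subtraction by probe set number, described below for complex IV. All 5 genes were then lower, against 59.5% of the genes above the filter.

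The log2 ratios of 5 other ATP synthase genes, not on the list and not in the counts above, lay between -0.13 and 0.046. ATP19, for the small subunit k, read 303 and 300.2 with a log2 ratio of -0.012, and TIM11, for the dimer subunit e, read 345 and 356 with 0.046. The inhibitor gene INH1 stood at -0.031, STF1, for a related inhibitor, at 0.018, and STF2, which helps hold the inhibitor in place, at -0.13. TIM11 and ATP20 encode partners in the dimer interface, and their ratios were on opposite sides of 0.

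In complex IV, 7 of 8 genes were lower on replicate 2 as deposited, where 57.6% of genes above the filter were, and 4 of 8 with quantile normalisation, where 45.3% were. As deposited, COX7 had a log2 ratio of 0.20, or 1.15-fold higher on replicate 2, and COX6 one of -0.19. A subtraction by probe set number, chosen after seeing the data, was also made. It took off how far the median ratio of probe sets 69 to 71 numbers away lay from that of all probe sets above a signal filter. With it COX7 stood at 0.075 and COX6 turned to 0.081, and the median of the genes above the filter was -0.031. The others lay, as deposited, between -0.099 for COX12 and -0.0037 for COX5A. In complex III, 7 of 9 genes were lower on replicate 2 as deposited and 3 of 9 with quantile normalisation. Of the core protein genes, COR1 stood at -0.16 and QCR2 at 0.13, but after the subtraction by probe set number at -0.24 and -0.12, both lower. QCR7 was higher on replicate 2, at 0.089, and QCR10, QCR9 and RIP1 were lower, at -0.11, -0.067 and -0.082, where quantile normalisation gave -0.067, 0.019 and -0.0029. QCR6, CYT1 and QCR8 lay at -0.022, -0.028 and -0.020. The QCR8 probe sets had opposite signs, 0.12 on the brighter and -0.16 on the dimmer. Complex II ran from -0.093 for SDH2 and -0.059 for SDH1 to -0.022 for SDH3 and 0.020 for SDH4. CYC1 stood at -0.17 as deposited and at 0.047 after the subtraction by probe set number.

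**Figure D3:**
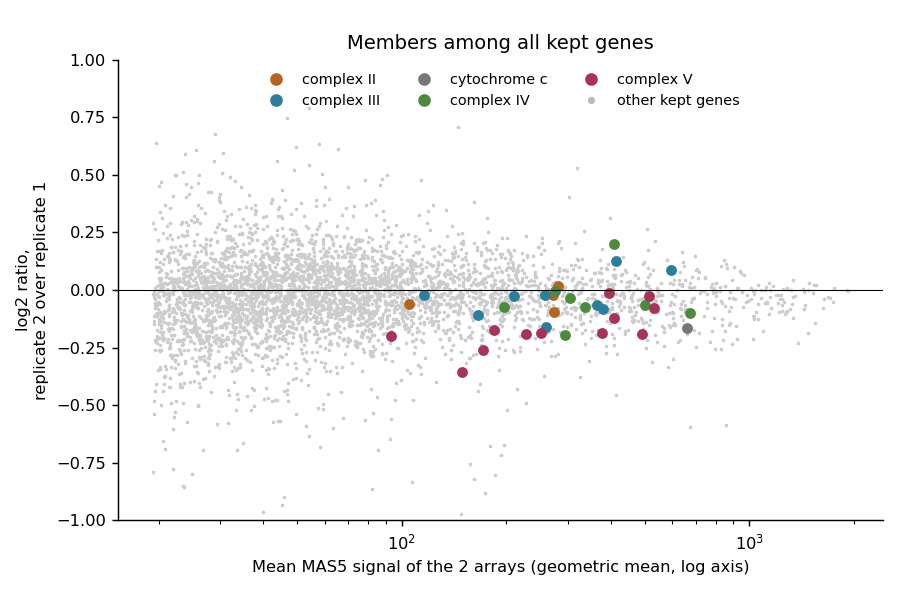
Log2 ratio of replicate 2 to replicate 1 against the mean signal of each gene (log axis), with the members coloured by complex over the other genes above the filter in grey (22 of 4242 genes lie beyond a log2 ratio of 1 and are not drawn). The complex V points lie below 0 across their whole range of signal, and of the other 22 genes 18 lie below 0 and 4 above, in the values as deposited.

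At a fold of more than 1.2, only ATP17 of the 34 genes was lower on replicate 2, against 6.91% of genes above the filter, and none was higher, against 3.47%. The members' ratios had an SD of 0.11, and the 1282 genes within the members' signal range 0.16. There is 1 array against 1 array, and for single genes the probe sets of a pair differed in log2 ratio by a median of 0.16, over the 36 genes with such a pair in this signal range.

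Several technical measures also differed between the arrays. The ratio of 3′ to 5′ signal, a measure of RNA integrity and labelling, was higher on replicate 2 for all 3 control genes, at 1.29 and then 1.43 (ACT1), 2.44 and 2.73 (SPT15), and 2.27 and 2.81 (SRB4) on replicates 1 and 2. Its part in the complex V difference was not tested. Across the 34 genes the log2 ratio and the log2 gene length had a Spearman correlation of 0.083 and a Pearson correlation of 0.019. Over the 12 complex V genes they were 0.29 and 0.33. These are descriptions over genes that share the same arrays. Added poly-A controls had a mean log2 ratio of -0.0094 (SD 0.053, 15 probe sets) and hybridisation controls -0.11 (SD 0.11, 9 probe sets). Probe sets numbered within 50 of those more than 2-fold lower on replicate 2 include 9 of the 34 members, 5 of them in complex V, against 21.0% of the genes above the filter. The complex V median was -0.18 over those 5 genes and -0.19 over the other 7.

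Genes around the respiratory complexes gave a wide range of signal. Carriers and porin had a median of 793 and 715 over 5 genes. The main ADP/ATP carrier gene PET9 read 820.2 and 829, the phosphate carrier gene MIR1 835 and 715 and the porin gene POR1 793 and 811. AAC1, for a lesser ADP/ATP carrier, read 44.6 and 48.9, and AAC3, for another, read 47.5 and 47.6. MIR1, which supplies phosphate for ATP synthesis, had a log2 ratio of -0.22, and the other 4 lay from 0.0045 to 0.13.

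Dehydrogenases that pass electrons to the chain had a median of 107 and 107 over 6 genes. The external NADH dehydrogenase gene NDE1 read 760.1 and 750.0 and its paralogue NDE2 21.6 and 21.2. The internal enzyme gene NDI1 read 43.3 and 45.3, the lactate dehydrogenase gene CYB2 108 and 97.3, and DLD1, for a lactate dehydrogenase of the other stereoisomer, 212 and 202. None of the 6 differed by more than 1.2-fold between the arrays, where 6.91% of the genes above the filter were lower on replicate 2 by that much and 3.47% higher. The paralogues of the complex II anchor genes, SHH3 and SHH4, were dim, with SHH3 at 22.6 and 17.0 and SHH4 at 12.2 and 20.7.

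Assembly factor genes read lower in rank than the subunit genes, as ranks of signal. Their median percentiles on replicates 1 and 2 were 66.9 and 65.7 for complex II over 4 genes, 39.5 and 40.5 for complex III and haem lyases over 7, 55.7 and 55.7 for complex IV over 21 and 32.3 and 27.2 for complex V over 7. COX15, for a haem A synthesis enzyme, read 218 and 240.4, and the copper chaperone gene COX17 read 149.8 and 134. For complex V, the F1 chaperone gene ATP11 read 53.4 and 58.2, and ATP12, which acts beside it, 20.2 and 16.8. Over the 5 complex V factors above the filter the median log2 ratio was -0.13, with 2 of them lower by more than 1.2-fold, against 6.91% of genes above the filter. Translational activators of mitochondrial mRNAs had a median of 16.0 and 15.1 over 10 genes, and 4 of them passed the filter.

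**Figure D4:**
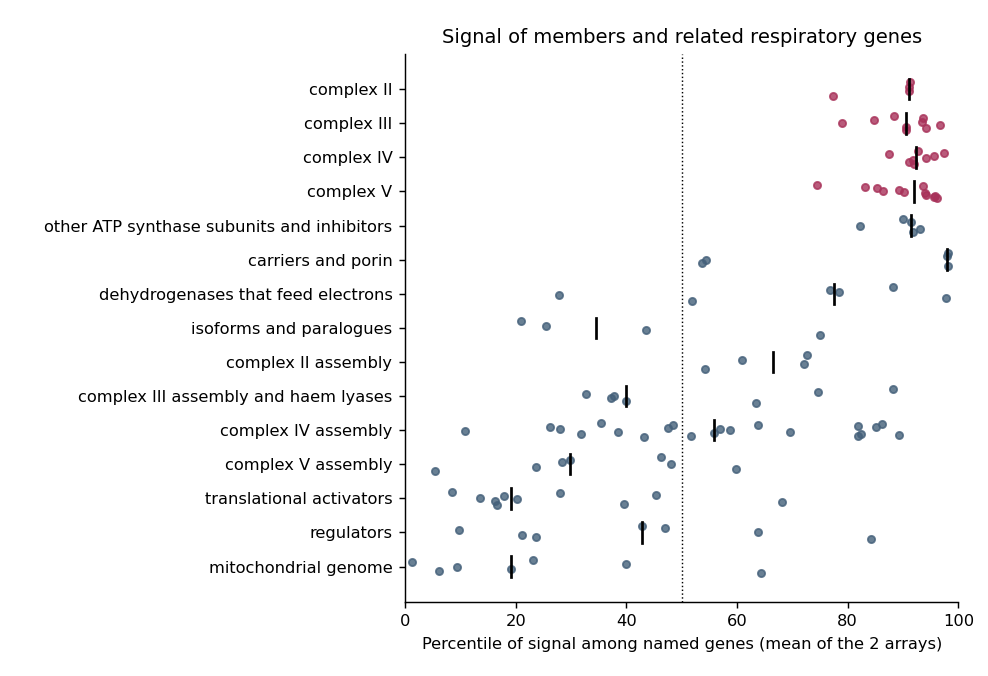
Percentile of signal among named genes, as the mean of the 2 arrays, for each gene of complexes II to V (red) and of the related lists (blue), with a black bar at the median of each row. The 4 complexes lie near the top of the range with the other ATP synthase genes and 3 of the 5 carriers and porin, and the assembly factors, activators and regulators spread more widely, with single genes such as COX15, CYC3 and HAP1 as high as some members.

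Among the regulators, HAP4, which encodes the limiting activation subunit of the Hap complex, read 68.3 and 60.0, with a log2 ratio of -0.19. Of the DNA-binding subunit genes, HAP2 read 18.7 and 18.1, HAP3 16.0 and 17.5, and HAP5 9.01 and 8.89, all under the filter. The glucose repressor gene MIG1 read 36.9 and 31.5, with a log2 ratio of -0.23, and the hypoxic repressor gene ROX1 35.0 and 42.1, with 0.27. HAP1, for the haem-responsive activator, has 3 probe sets, from 54.6 and 56.8 to 379.9 and 339 on replicates 1 and 2, so its level is uncertain.

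The partner subunits encoded in mitochondria read low except on single probe sets. COX1 had 824 and 898 on its brightest probe set and 11.4 and 9.87 on its dimmest, and the ATP synthase ring gene OLI1 847 and 759 and, on a second probe set, 0.192 and 0.741. ATP6, for the proton channel subunit, read 34.8 and 28.0. Mitochondrial RNA may be labelled with another efficiency, so these values are not set against those of the nuclear subunits.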

How the data were processed

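Total RNA (about 20 ug, per the labels' protocols) from each of 2 replicate cultures was made into biotin-labelled cRNA and read on its own array. Each deposited value is a linear intensity, a MAS5 signal for a probe set, per the submitters' processing notes. The scaling target and other MAS5 settings are unknown here. Names came from the platform annotation, updated by gene identifier through the RefSeq R64 gene table. Of 9335 probe sets, 6504 had 1 gene, 328 had several and were not named, 60 are controls and 2443 are unnamed here. Log2 signals of a gene's probe sets were averaged, leaving out values of 0. Percentiles were taken among 5656 named genes. Ratios were read on the 4242 genes with a mean signal at or above the 25th percentile, about 19.2, which is called the filter. Errors are SD over the 2 arrays, and this number limits the precision. No test was made, since both arrays belong to a single group. The members, gene lists and alternatives were chosen with earlier results of these data known, and every member is named. Only the fold counts and the median ratio were tested on simulated data, with a 1.5-fold change and without the filter. Analyses ran in Python 3.11.15 with pandas 2.3.3, numpy 2.4.6, statsmodels 0.14.6, scipy 1.17.1 and, for plots, matplotlib 3.10.9. Alternatives are in the closing section, and sequences were not used here.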

Additional observations from a re-analysis of the deposited data

Results flagged for a closer look

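The array carries a separate control probe set for RIP1, the Rieske protein gene of complex III, which the single-gene annotation does not list and the values above do not use. It read 315.0 on replicate 1 and 264.8 on replicate 2, above the opposite-strand controls (3.39 and 4.07 at most). Its log2 ratio was -0.25, against -0.082 for the annotated RIP1 probe set at 389.6 and 368. The pair has the same direction and differs by 0.17 in log2 ratio.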

How the results depend on the processing

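No paired analysis was possible because both arrays belong to a single group. The complex V median log2 ratio stayed below 0 under all 12 alternatives, from -0.19 to -0.12, and the F0 and stalk median from -0.23 to -0.14. Some alternatives could not move these medians. Dropping the filter, raising it to the 50th percentile or keeping only probe sets with plain numbered names left every member in with the same values. Quantile normalisation, which moved the median of all genes above the filter from -0.023 to 0.014, turned complexes II, III and IV to 0.0046, 0.019 and 0.0060, and moved the median of all members to -0.017 and of F1 to -0.0051. Complex III moved to -0.0049 with centring on the median and -0.0069 with loess. The subtraction by probe set number was chosen after seeing the data. It took off how far the median ratio of probe sets 69 to 71 numbers away lay from that of all probe sets above a signal filter. It moved complex IV to -0.011 and F1 to -0.13. It turned QCR2 to -0.12, CYC1 to 0.047, COX6 to 0.081 and COX12 to 0.063. It left 1 of 4 complex II and 2 of 8 complex IV genes below the median of the genes above the filter. The cause was not tested. Without genes near the low probe set numbers, 7 of 7 complex V and 3 of 3 F0 and stalk genes lay below that median, and 0 genes were more than 1.2-fold lower, since fewer genes remained and ATP17 was among those left out. The counts over 1.2-fold lower became 11 of all 34 members and 8 of 12 in complex V at 1.1-fold, against 21.0% of the genes above the filter, and 0 at 1.5-fold and 2-fold. The count higher became 1 at 1.1-fold and 1 with quantile normalisation (COX7). Shares over all genes were not counted for these higher counts, nor at 1.5-fold and 2-fold. With the brightest probe set of a gene the median signal was 319.8 for all members, 365 for complex III, 353 for complex V and 229 for F0 and stalk. With the mean of log2 values it was 217 for complex II, 350.2 for complex IV and 278 for complex V. Ranked among genes above the filter only, 15 members lay in the top 10% on both arrays, and the share over all genes was not counted for this ranking. Leaving out a replicate leaves the other array's value, which is printed above. The planned promoter window and protein comparisons were not run.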
